A study of Mus musculus with 10 samples.

Results

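The cytosolic ribosomal protein genes encode the proteins of the 40S and 60S subunits that translate cytosolic mRNA. They were measured in the livers of mice given phenobarbital and of control mice. The genes were chosen by symbol alone: Rpl or Rps followed by a number, with at most a suffix of a, x, y or l and a closing digit, or Rpsa, Rplp0, Rplp1 or Rplp2. Where several probe sets carry only that gene's symbol, the brightest on average across all 10 arrays stands for the gene. This gave 49 of 18193 genes, on 105 probe sets, with 23 genes of the small subunit (Rps) and 26 of the large subunit (Rpl). Rplp1 is not analysed here.

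All 10 animals were male B6C3F1/Crl mice, the hybrid offspring of a C57BL/6 and a C3H/He parent. The mice arrived at an age of 29 to 32 days and had 5 days to settle before they were split at random into 2 groups of 5. The treated group drank water holding 0.05% (w/v) phenobarbital, a barbiturate that induces drug-metabolising enzymes in the liver, for 28 days. The labels state no agent for the control group, and each array holds whole-liver RNA of 1 animal.

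Ribosomal protein mRNAs are among the most abundant in most cells, and the proteins are needed in equal amounts for each subunit. In mammals most of these mRNAs begin with a C followed by a run of pyrimidines, the 5′ terminal oligopyrimidine (TOP) motif. Through this motif the mTORC1 kinase and the RNA-binding protein LARP1 control how much of the mRNA is translated. Much of the regulation of this family therefore acts on translation, which an array of mRNA levels does not read.

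RefSeq promoters of GRCm38.p6 (250 bases before to 50 after the annotated start) matched 43 of the 49 genes, with 51 promoters in all, and the other 6 genes had no match. A run of 8 or more C or T letters on the sense strand, within 20 bases of the start on either side, was present in 20 of the 51 (39.2%) and in 16% of all 32851 promoters. The windows below reach from 15 bases before the start to the 15th base of the transcript. They show the 3 genes with the lowest p among those that were lower (Rpl27a, Rpl13a and Rpl35). Also shown are 5 abundant or well-studied members, a paralog pair, and the muscle-type Rpl3l, which has no such run. In all, 23 of the 43 genes had no such run, among them the abundant Rplp0 and Rpl11, whose windows are not shown. Capitals mark the letters of the longest run that lie in the window.
Rpl27a, chr7:109519180-109519209, plus strand: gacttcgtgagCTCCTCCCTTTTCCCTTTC
Rpl13a, chr7:45128731-45128760, minus strand: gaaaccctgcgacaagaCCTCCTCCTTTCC
Rpl35, chr2:39005117-39005146, minus strand: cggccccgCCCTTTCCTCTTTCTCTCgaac
Rpl7a, chr2:26910792-26910821, plus strand: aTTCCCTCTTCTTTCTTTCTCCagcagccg
Rps6, chr4:86857353-86857382, minus strand: aagcggaagtcgggCCTCTTTTTCgtgacg
Rps18, chr17:33955651-33955680, minus strand: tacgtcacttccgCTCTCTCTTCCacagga
Rpl38, chr11:114668565-114668594, plus strand: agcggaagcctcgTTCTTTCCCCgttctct
Rplp2, chr7:141447636-141447665, plus strand: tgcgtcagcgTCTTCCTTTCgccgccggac
Rps27, chr3:90213634-90213663, minus strand: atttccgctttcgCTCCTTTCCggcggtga
Rps27l, chr9:66946071-66946100, plus strand: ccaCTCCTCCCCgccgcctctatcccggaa
Rpl3l, chr17:24727811-24727840, plus strand: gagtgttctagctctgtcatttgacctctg

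The run was longest in Rpl7a (21 letters) and Rpl27a (20 letters), and its place varied: it spanned the start in Rpl35 and lay wholly before it in Rps27l. CCGGAAG, the core of the site bound by ETS factors such as GABP, was found on either strand in 21 of the 51 promoters (41.2%) and in 8.86% of all promoters. AAGATGG, the core of the YY1 site, was found on either strand in 8 (15.7%, against 6.34%), and TATAAA on the sense strand, between 50 and 1 bases before the start, in 1 (1.96%, against 2.63%). These are matches of letters in a window and not measured binding sites. The median difference between treated and control livers, on the log2 scale, was -0.02 over the 20 genes with the pyrimidine run and 0.008 over the 23 without it.

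Most of the ribosomal protein probe sets lay near the top of the array's range. The deposited values are log2 expression levels between 2.34 and 15.13. Of the 49 genes, 36 had a mean level of 11 or more over the 10 arrays (11.42 to 14.07), 5 lay between 8 and 11, and 8 lay under 8. The median level over all genes was 6.42, and 4 of the 49 lay below it. In these tissue samples a lower level can come from fewer cells of a type or from less RNA per cell, which cannot be told apart. The values are relative to the other transcripts on the same array, so the amount of ribosomal mRNA per liver was not measured.

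Most ribosomal protein transcripts had nearly the same level in treated and control livers. No gene was called higher and 2 of 49 (4.08%), Rpl27a and Rpl13a, were called lower, where 20.3% of all genes were called in either direction, 9.02% higher and 11.3% lower. A call is a limma adjusted p under 0.05, two-sided, with Benjamini-Hochberg adjustment over all 18193 genes. At an unadjusted p under 0.05, 1 gene was higher and 6 were lower, where 3009 and 3363 of all 18193 genes were. The median difference, phenobarbital minus control, was -0.01 over the 49 genes and 0.008 over all genes, with 23 positive and 26 negative. The treatment itself was evident on the same arrays: Cyp2b10, the classical phenobarbital-induced P450, had a log2 difference of 7.05 ± 0.24 (SE).

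**Figure D1:**
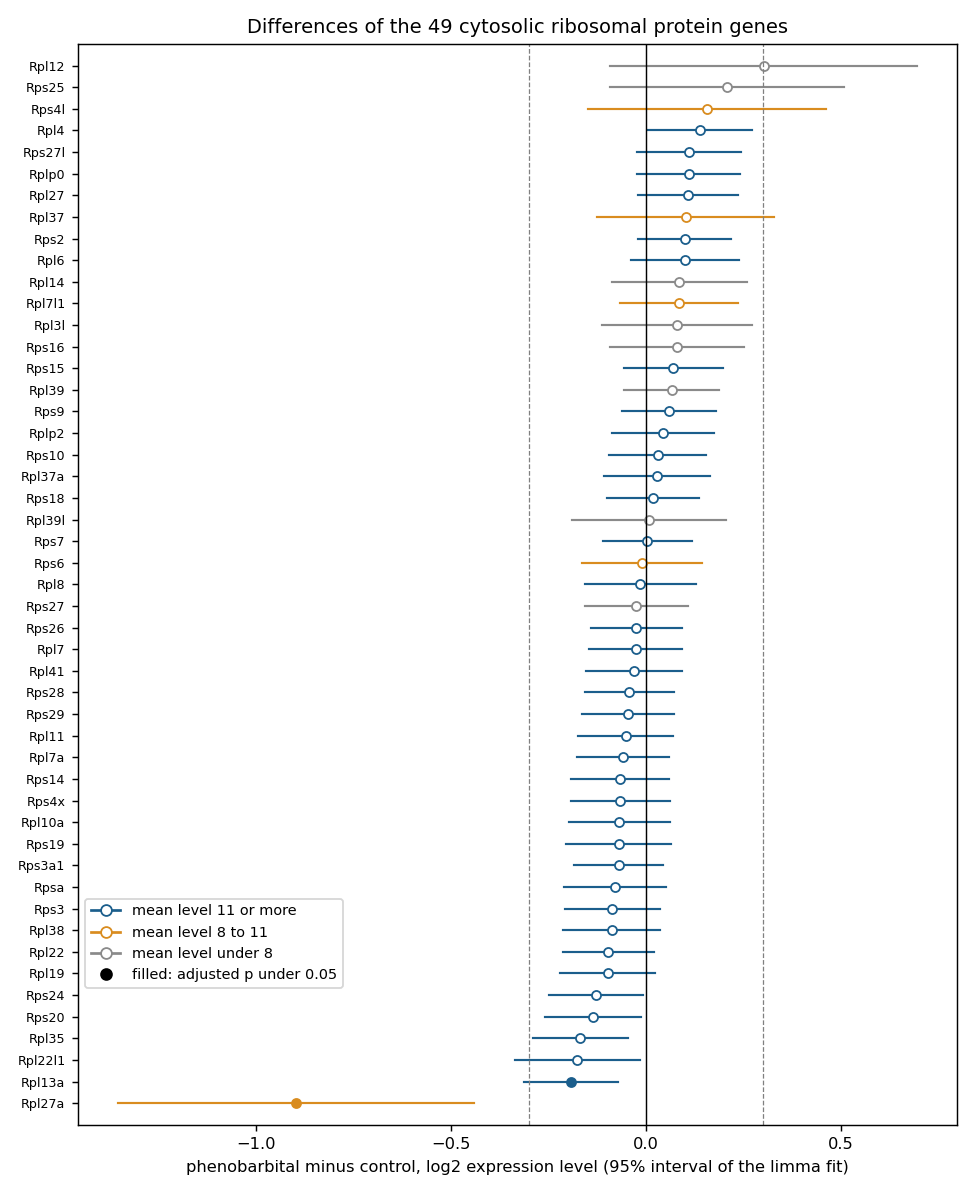
Difference between 5 phenobarbital and 5 control livers for each of the 49 genes, in log2 units, with the 95% interval of the limma fit; colour gives the mean level and filled points passed an adjusted p of 0.05. Rpl27a and Rpl13a are the filled points, and the intervals of 42 genes lie wholly inside the dashed lines at ±0.3.

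Most of these differences were small on the deposited scale. In 46 of the 49 genes (93.9%) the difference was under 0.2 in size, a 1.15-fold change, against 67.3% of all genes. The 95% interval lay wholly within ±0.3, a 1.23-fold change either way, in 42 genes (85.7%), against 44.5% of all genes. The 7 genes whose intervals reached further were Rpl12, Rpl13a, Rpl22l1, Rpl27a, Rpl37, Rps25 and Rps4l. At a level of 11 or more, the interval lay within ±0.3 in 34 of 36 ribosomal protein genes, against 56.6% of all 1073 genes there. The difference was under 0.2 in all 36, against 70.3% of those 1073. Rpl12, a 60S protein of the stalk base, had the largest difference upward, 0.30 with an interval from -0.09 to 0.70, on a probe set under 8. The median within-group SD was 0.06 over the ribosomal protein genes, 0.14 over all genes and 0.09 over the 1073 genes at a level of 11 or more. Among those 1073 genes 25.5% were called, against 1 of the 36 ribosomal protein genes at that level. The median level of these 36 genes was between 13.04 and 13.15 on the control arrays and between 13.02 and 13.10 on the treated arrays, with overlapping groups. Very bright probe sets can respond less than in proportion to their transcript, so differences and spreads at such levels may be understated, and the response of these probe sets was not tested.

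**Figure D2:**
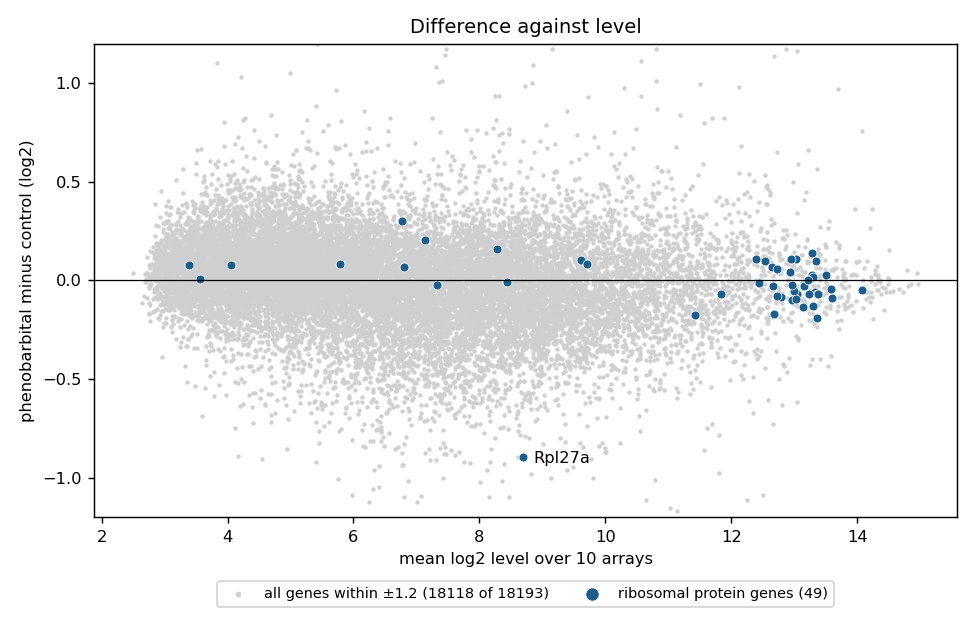
Difference between phenobarbital and control (vertical axis, log2) against the mean log2 level over 10 arrays (horizontal axis) for genes within ±1.2 (grey, 18118 of 18193) and for the 49 ribosomal protein genes (blue). The ribosomal protein genes gather at levels of 11 or more, all 36 within ±0.2 there, and Rpl27a stands apart at -0.90.

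The arrays themselves differ in a way that touches the calls. The mean of 24 probe sets for the poly-A spike-ins, bacterial RNAs added before labelling, lay between 7.77 and 8.64 on control replicates 1, 2, 3 and 5, at 6.40 on control replicate 4, while the treated arrays lay between 5.76 and 6.58. The labels name no batch. With this split of 4 and 6 arrays as a block, the comparison rests on the treated arrays against control replicate 4 alone. In this fit the differences of the 49 genes ran from -0.18 to 0.52 (Rps4l), against -3.17 to 7.57 over all genes. The share of genes called then fell to 0.786% over all genes and to none of the 49. Spike-in values separate control replicate 4 from the other controls in the same way as the level of Rpl27a does, and their part in that result was not tested.

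Other fits have a background of their own. After quantile normalisation 1 gene was called higher (Rpl39) and 3 lower, where 21.1% of all genes were called, 12.7% higher and 8.46% lower. The Rpl39 probe set lay low, at 6.77 in control livers and 6.83 in treated livers on the deposited scale. A brighter probe set that lists Rpl39 with another symbol, at 13.75, differed by 0.01 on that scale. Among the 9095 brighter genes fitted alone, none was called higher and 3 lower, where 29% were called, 9.21% higher and 19.8% lower. On probe sets of single transcripts, which leave 26 of the 49 genes, none was called higher and 3 lower (Rpl27a, Rps24 and Rps3). In that fit 20.1% of genes were called, 8.98% higher and 11.1% lower. Rps24 and Rps3 were read there on probe sets at 7.06 and 6.44 in control livers, against 13.37 and 12.84 in the main fit. With trend and robust variance 1 was called higher (Rpl4) and 5 lower (Rpl13a, Rpl27a, Rpl35, Rps20 and Rps24), where 21.2% of genes were called, 9.28% higher and 12% lower. With the spike-in block 0.484% of all genes were called higher and 0.302% lower.

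Rpl27a, a protein of the 60S subunit, had the largest difference of the family. Its level was 9.19, 9.39, 9.55, 8.19 and 9.37 in control replicates 1 to 5 and 8.55, 7.99, 8.35, 8.14 and 8.17 in phenobarbital replicates 1 to 5. Control replicates 1, 2, 3 and 5 lay above every treated animal, and control replicate 4 lay among the treated animals, with 2 of 5 treated values above it, so the groups overlapped. The means were 9.14 ± 0.55 in control livers and 8.24 ± 0.22 in treated livers (SD, n = 5 each), a log2 difference of -0.90 ± 0.21 (SE, limma adjusted p = 0.0118). Against control replicate 4, with the spike-in split as a block, the difference was 0.05 ± 0.18 (SE, limma adjusted p = 0.941). Without control replicate 4 it was -1.14.

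This result came from a probe set in the middle of the scale. Another single-symbol probe set of Rpl27a lay near the bottom of the scale, at 3.64 in control livers and 3.65 in treated livers. A further probe set, which the annotation lists under 5 symbols including Rpl27a and so was not assigned to the gene, stood at 13.32 in control livers and 13.30 in treated livers, a log2 difference of -0.03 ± 0.05 (SE, limma adjusted p = 0.77 in the fit of all probe sets). The fall of Rpl27a was therefore seen with 1 of the 3 probe sets that carry its symbol.

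Rpl13a, a 60S protein whose transcript often serves as a reference in quantitative PCR, was the other called gene. Its level was 13.42, 13.52, 13.49, 13.40 and 13.44 in the controls and 13.31, 13.25, 13.21, 13.27 and 13.27 in the treated animals. The groups did not overlap, and control replicate 4 was the lowest control. The log2 difference was -0.19 ± 0.06 (SE, limma adjusted p = 0.0286), a level 0.875 times that of controls, and -0.14 against control replicate 4 with the block (limma adjusted p = 0.563). The call was lost when phenobarbital replicate 2, 3, 4 or 5, or control replicate 2 or 3, was left out, where Rpl27a was the only call. The call of Rpl13a was also lost with the replicate number as a block (limma adjusted p = 0.0653), after median centring, and where the probe sets of a gene were averaged. Of the other 3 probe sets of Rpl13a, none was called when tested singly, with differences of -0.16, -0.09 and -0.004.

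Rpl35, a 60S protein next to the exit of the nascent chain, lay just outside the threshold. Its level was 12.73, 12.83, 12.79, 12.71 and 12.75 in the controls and 12.66, 12.58, 12.55, 12.63 and 12.55 in the treated animals. Every treated value was below every control value. The log2 difference was -0.17 ± 0.06 (SE, limma adjusted p = 0.0515), and -0.12 against control replicate 4 with the block. It passed without control replicate 4, after quantile normalisation, among the brighter genes alone, with array weights, and with trend and robust variance. Rpl35 has 6 probe sets: the 5 at a level of 11 or more had differences from -0.34 to -0.08, and the 1 near the bottom of the scale had 0.17. A single one of them was called when tested singly (-0.34).

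The groups did not overlap in 5 of the 49 genes, 4 lower (Rpl13a, Rpl22, Rpl35 and Rps24) and 1 higher (Rps2), where 7.21% and 5.73% of all genes were apart in these directions. Rps24, a 40S protein mutated in some families with Diamond-Blackfan anaemia, was at 13.34, 13.45, 13.39, 13.30 and 13.37 in the controls and 13.26, 13.26, 13.24, 13.25 and 13.20 in the treated animals. Its log2 difference was -0.13 ± 0.06 (SE, limma adjusted p = 0.118). Rps2, a 40S protein near the mRNA entry site, was at 13.25, 13.33, 13.23, 13.33 and 13.33 in the controls and 13.38, 13.44, 13.41, 13.40 and 13.34 in the treated animals. Its log2 difference was 0.10 ± 0.06 (SE, limma adjusted p = 0.218). Rpl4, which lines the exit tunnel, had the largest difference upward among the genes at a level of 11 or more, with 13.11, 13.30, 13.13, 13.32 and 13.21 in the controls and 13.36, 13.38, 13.31, 13.38 and 13.34 in the treated animals. The groups overlapped, with control replicate 4 at the top of the controls, and the log2 difference of 0.14 ± 0.06 (SE, limma adjusted p = 0.126) became 0.03 against control replicate 4 with the block.

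**Figure D3:**
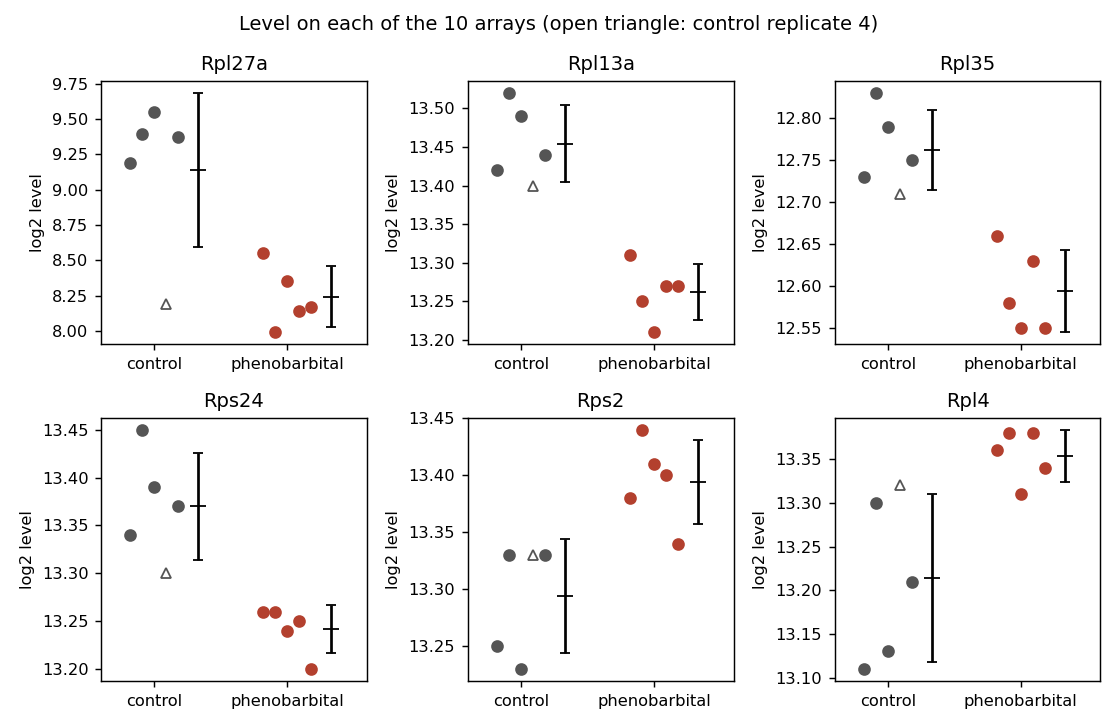
Log2 level of 6 ribosomal protein genes on each array (points; the open triangle is control replicate 4) with the mean and SD of each group of 5 (black); each panel has its own scale. Control replicate 4 lies with the treated animals for Rpl27a (8.19), is the lowest control for Rpl13a, Rpl35 and Rps24, and the highest for Rpl4 (13.32).

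Proteins of the small subunit had no called gene on the probe sets that stand for the genes. Tested singly, another probe set each of Rps10 (-0.21), Rps24 (-0.35), Rps3 (-0.34) and Rps9 (-0.35) was called lower. No probe set of this subunit was called higher, where 11% of all probe sets were called lower and 7.7% higher. On the probe sets that stand for the genes, differences ran from -0.14 to 0.21, with a median of -0.02 and 10 positive and 13 negative. The lowest was Rps20, at 13.20 ± 0.06 in control livers and 13.07 ± 0.05 in treated livers (SD, n = 5; log2 difference -0.14, limma adjusted p = 0.107). The highest was Rps25, whose probe set lies under 8, at 7.03 ± 0.21 in control livers and 7.24 ± 0.31 in treated livers, with a 95% interval from -0.09 to 0.51. Rpsa, also known as the laminin receptor, was at 12.77 ± 0.06 and 12.69 ± 0.07. Rps3, which also has a part in DNA repair, was at 12.84 ± 0.06 and 12.75 ± 0.04 (limma adjusted p = 0.298). Rps19, the gene first linked to Diamond-Blackfan anaemia, differed by -0.07, Rps14, the gene lost in the 5q- syndrome, by -0.07, and Rps7 by 0.004. None of these passed on the probe set that stands for the gene.

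Proteins of the large subunit held both called genes. Their median difference was -0.003, with 13 positive and 13 negative. Rplp0 and Rplp2, the stalk proteins that recruit elongation factors to the ribosome, differed by 0.11 and 0.04 (limma adjusted p = 0.222 and 0.636). Rplp0 was at 12.88 to 13.08 in control livers and at 13.03 to 13.13 in treated livers, so the groups overlapped. Rpl11, which with Rpl5 binds MDM2 and so links ribosome assembly to p53, was at 13.03 ± 0.07 in control livers and 12.98 ± 0.02 in treated livers (SD, n = 5), a difference of -0.05 with a 95% interval from -0.17 to 0.07. Rpl38, which in the mouse embryo is needed to translate particular Hox mRNAs, differed by -0.09 (limma adjusted p = 0.301).

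The family holds several paralogs that are switched on in particular tissues or conditions. None was called, where 20.3% of all genes were. Rpl3l, the muscle form of Rpl3, lay near the bottom of the scale at 4.02 ± 0.12 in control livers and 4.10 ± 0.17 in treated livers (SD, n = 5). Rpl39l, found mainly in testis, lay there too, at 3.55 ± 0.18 and 3.56 ± 0.12. Levels this low are close to background, where a change is understated. Rpl22l1 was at 11.39, 11.54, 11.70, 11.44 and 11.47 in control livers and 11.40, 11.31, 11.32, 11.44 and 11.19 in treated livers, a log2 difference of -0.18 ± 0.07 (SE, limma adjusted p = 0.11). Its partner Rpl22, which represses Rpl22l1 in mice, differed by -0.10 (limma adjusted p = 0.229). Rps27l, a target of p53, was at 12.79, 12.95, 13.02, 12.86 and 12.84 in control livers and 12.95, 13.02, 12.97, 13.04 and 13.03 in treated livers, a difference of 0.11 ± 0.06 (SE, limma adjusted p = 0.225) with overlapping groups. Its 3 probe sets gave 0.11, 0.11 and 0.06, and the closely related Rps27 gave -0.02. Rps4l differed by 0.16 with a wide interval from -0.15 to 0.46, where the X-linked Rps4x differed by -0.07. Rpl7l1, which acts in ribosome assembly, differed by 0.09, and 1 of its 3 probe sets (difference 0.28) was called when tested singly. Rpl7 differed by -0.03. Rps3a1, included through the closing digit of its symbol and not as a tissue-restricted form, was at 13.41 in control livers and differed by -0.07.

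The choice of probe set matters for this family, because processed pseudogenes of ribosomal protein genes are common and many probe sets match both. Of the 49 probe sets used, 32 are of types that can match several transcripts, of the same gene or of others. They are 17 with the suffix _a_at, 2 _s_at and 13 _x_at, and how many match a pseudogene was not tested. Tested singly among all 45037 probe sets, 8 of the 105 single-symbol probe sets were called (7.62%), 1 higher and 7 lower, where 18.7% of all probe sets were called, 7.7% higher and 11% lower. A further 110 probe sets list a symbol of this family together with others and were assigned to no gene here. They carry 43 symbols of the family, 28 of them with no single-symbol probe set. These 110 had a median level of 12.5, and 5 of them (4.55%) were called, 3 higher and 2 lower, with differences from -0.44 to 0.39 over all 110. With the spike-in split as a block none of either set was called.

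Of the 13 ribosomal protein genes under a level of 11, 9 also appear on such a shared probe set. For Rps16 the single-symbol probe set lay at 3.38 and the brightest shared one at 13.85, and for Rps6, the substrate of S6 kinase, at 8.44 and 13.86. A single-symbol probe set at the bottom of the scale says little about such a gene. The brightest shared probe sets of the 9 symbols differed by -0.21 to 0.05, none called, the lowest being that of Rpl14 (12.45 in control livers and 12.24 in treated livers, limma adjusted p = 0.0504 in the fit of all probe sets).

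**Figure D4:**
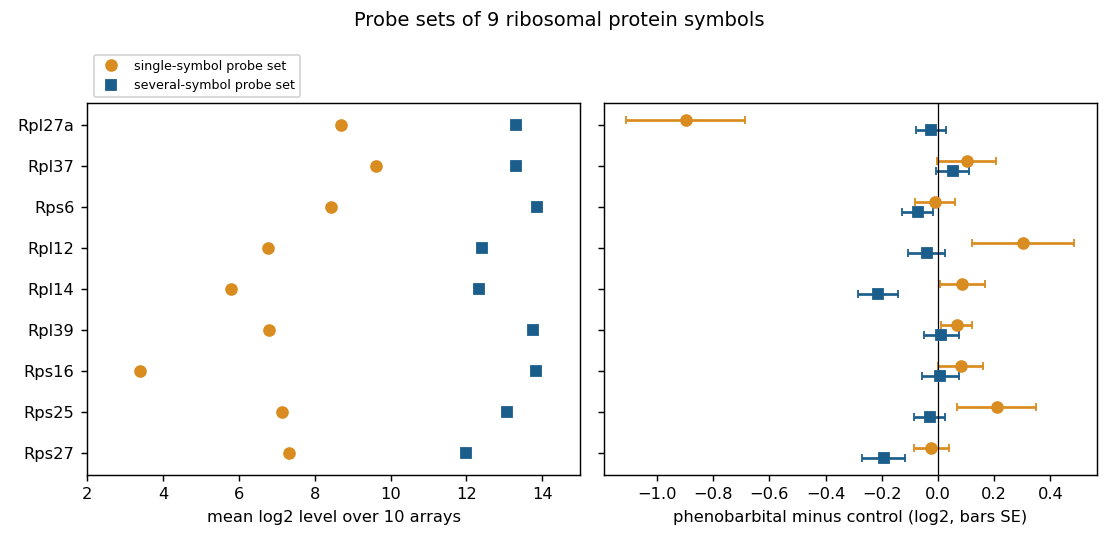
Mean log2 level over 10 arrays (left) and difference between phenobarbital and control with its SE (right) for 9 ribosomal protein symbols, on the single-symbol probe set (circles) and on the brightest probe set that lists the symbol among several (squares). Rpl27a differs by -0.90 on the first and -0.03 on the second, and the shared probe sets all lie between 12.0 and 13.9.

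Genes around the ribosome were compared through 4 lists. Mitochondrial ribosomal proteins, which build the ribosome of the mitochondrion, had 6 of 76 members higher and 6 lower (15.8%, against 20.3% of all genes), with a median of 0.05. Mrpl1 (-0.37), Mrpl39 (-0.29) and Mrps9 (-0.27) fell most and Mrpl34 (0.30), Mrpl38 (0.27) and Mrps18a (0.24) rose most. With the spike-in split as a block the direction turned for Mrpl34 (-0.06) and Mrpl38 (-0.05), and control replicate 4 lay above all but 1 of the treated values of Mrpl38 and above all those of Mrpl34. Leaving out a single animal changed the 12 calls to between 2 (without phenobarbital replicate 2) and 18 (without control replicate 4). There were 7 calls or fewer without phenobarbital replicate 1, 2, 3 or 4 and without control replicate 2, 3 or 5. The share of all genes called with an animal left out is not given here. Such counts, for this list and those below, therefore do not show a change particular to the list.

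Ribosome biogenesis genes, which make and process ribosomal RNA, had 7 of 61 members called higher and 3 called lower (16.4%), with a median of 0.02. Rrn3, which brings RNA polymerase I to the ribosomal DNA promoter, went from 6.92 ± 0.125 to 7.46 ± 0.40 (SD, n = 5; log2 difference 0.53, limma adjusted p = 0.0298). Polr1a, the largest subunit of that polymerase, rose by 0.34, and Rrp12, a factor of subunit export, by 0.42. Efl1, the GTPase that helps release Eif6 from the 60S subunit, fell (-0.31), as did Rcl1 (-0.27) and the nucleolar chaperone Npm1 (-0.27). The 10 calls became 3 without control replicate 3, 4 without control replicate 1 or 2, and 6 without phenobarbital replicate 1, 2, 4 or 5.

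The list of translation factors, which also holds Pabpc1, Tpt1, Naca and Btf3, had 3 of 33 measured members higher and 3 lower (18.2%), with a median of -0.03. Eif4e, the cap-binding protein, rose from 9.81 ± 0.20 to 10.27 ± 0.09 (SD, n = 5; log2 difference 0.46, limma adjusted p = 0.00566). Eif3b rose by 0.29 and Eif6 by 0.24. With the spike-in split as a block the difference of Eif6 was -0.00, and with the spike-in level as a covariate -0.02. Eif5b, which joins the subunits, fell (-0.54), as did the poly-A binding protein Pabpc1 (-0.29) and Eif5 (-0.29). The 6 calls became 3 without phenobarbital replicate 2 or control replicate 2, and 10 without control replicate 4. Genes of the mTORC1 pathway and of translation control were higher in 2 of 22 and lower in 3 (22.7%), with a median of -0.07. Tsc1, an inhibitor of mTORC1, fell (-0.48), and so did Rragd (-0.66) and the kinase gene Eif2ak4 (-0.29). The call of Eif2ak4 was lost without control replicate 2, which stood apart at 6.93 (difference -0.21, limma adjusted p = 0.071), and on its single-transcript probe set the difference was 0.07. Lamtor1 (0.34), which anchors the Rag GTPases on the lysosome, and Akt1s1 (0.40), an inhibitory subunit of mTORC1, rose. Mtor itself differed by -0.20 (limma adjusted p = 0.101) and Larp1 by 0.06 (limma adjusted p = 0.526). With the spike-in split as a block no member of the 4 lists was called, and Fau, a ribosomal protein gene outside the symbol rule, differed by 0.06 on the unblocked fit (limma adjusted p = 0.522).

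Other measures of the arrays are given for reference. Hepatocyte markers (7 measured) had no called member, with a mean level between 14.20 and 14.28 in control livers and between 14.17 and 14.25 in treated livers. The mean of 4 kidney markers lay between 4.28 and 5.39 on the control arrays and between 4.42 and 4.55 on the treated arrays. That of 5 lymphocyte markers lay between 5.20 and 5.42 on the control arrays and between 5.15 and 5.26 on the treated arrays. Of the stellate cell markers 4 of 5 were lower and of the endothelial markers 3 of 5, with mean levels of 9.37 to 9.51 and 8.22 to 8.75 in controls against 8.73 to 9.17 and 7.97 to 8.41 in treated livers, where 11.3% of all genes were called lower. With the spike-in block neither list had a call, and the median difference went from -0.44 to -0.50 for the stellate list and from -0.30 to -0.11 for the endothelial list. Kupffer cell markers had no call among 5, and 1 of 4 cholangiocyte markers (Epcam) and 1 of 4 erythroid markers (Alas2) were higher. Probe sets of 18S ribosomal RNA averaged 13.68 to 14.10 on the control arrays and 12.63 to 13.73 on the treated arrays, with control replicate 4 the lowest control. The labelling starts from poly-A, so this is not a measure of ribosome number. The 3′ minus 5′ difference of Gapdh, a sign of RNA integrity and labelling, was -0.15 to -0.03 on the control arrays and -0.28 to -0.21 on the treated arrays, with no overlap. That of Actb was 1.28 to 1.78 on the control arrays and 1.19 to 1.33 on the treated arrays. Hybridisation spike-ins averaged 10.65 to 11.30 against 10.54 to 10.74, and the upper quartile of each array lay at 7.39 to 7.46 against 7.30 to 7.36, with no overlap. In exact two-sided permutation tests of 7 such measures the p was 0.00794 for Gapdh and the upper quartile, the smallest that 5 arrays against 5 allow, with adjusted p from 0.0278 to 0.0317 over the 7. These differences go with the groups, and their part in the ribosomal protein values was not tested.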

How the data were processed

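The authors deposited 1 log2 expression level per probe set and array, made from 3′ IVT labelled RNA on Affymetrix arrays, per the labels' protocols. GCOS is named per the submitters' processing notes, while how probes were summarised and normalised is not stated there. The log2 scale was inferred from the values' range. Of 45101 probe sets, 64 were controls, 34945 had 1 gene symbol in the platform annotation, 932 several and 9160 none listed, and the values were used as deposited. The arrays are separate animals, and their number (5 per group) limits the precision.

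Groups were compared with limma 3.58.1 (lmFit and eBayes, R 4.3.3). The fit was also run on simulated independent values without the array differences described above. Such values cannot show how those differences bear on the calls. The replicate numbers were not used to pair the arrays in the main fit. The members and lists were chosen with earlier results of these data known. Members were named if called (up to 15 in each direction), if paralogs or their partners, or if fixed by name, together with up to 3 called genes per list and direction. Rpl35, Rpl4, Rps20, Rps24, Rps2 and other members outside that rule were chosen after their values were seen. Of listed genes 76 of 76, 61 of 62, 33 of 39 and 22 of 25 were measured in the order of the text. A writing error left Rps6kb2, Eif4ebp1 and Eif4ebp2 out of the mTORC1 list. RefSeq tables of GRCm38.p6 gave names and promoters. Python 3.11.15 with matplotlib 3.10.9 drew the figures.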

Additional observations from a re-analysis of the deposited data

Results flagged for a closer look

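In groups of 5 arrays, 1 sample lay far from the other 4 in 4 cases among the named genes, the array measures and the median level of the abundant ribosomal protein genes, by Dixon's test of the gap, which picks out about 1 in 20 groups by chance. Control replicate 4 stood at 8.19 for Rpl27a, where the other controls lay between 9.19 and 9.55. The same animal stood at 9.65 for Mrpl38, against 9.22 to 9.30 in the other controls. Control replicate 2 stood at 6.93 for Eif2ak4, against 6.46 to 6.56. Phenobarbital replicate 2 stood at 12.27 for Lamtor1, against 12.39 to 12.43 in the other treated animals. In all, 114 such groups were examined.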

How the results depend on the processing

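No ribosomal protein gene was called higher by limma (1 at an unadjusted p under 0.05); this became 1 after quantile normalisation and 1 with trend and robust variance, and 3 among the 110 shared probe sets, a set added after seeing the data. The 2 genes called lower became 5 with trend and robust variance, 1 after median centring, 1 with each gene's probe sets averaged, 1 with the replicate block, and 0 with the poly-A spike-in block or covariate. Leaving out 1 animal gave 0 higher each time and 1 to 3 lower. The share of all genes called is not given here for the fits with 1 animal left out. Nor is it given for median centring, averaged probe sets, the replicate block or the covariate. Counts under these settings therefore cannot be set against all genes. The median difference of -0.01 became 0.02 after median centring and 0.044 on single-transcript probe sets, and lay between -0.04 and 0 with 1 animal left out. The spike-in block and the covariate each left 0 calls in the mitochondrial, translation factor, biogenesis and mTORC1 lists. Translation factor calls (6) became 10 among brighter genes alone and 11 with trend and robust variance. In those fits 29% and 21.2% of all genes were called, against 20.3% in the main fit. How many members of the list were among the brighter genes is not given here. With 1 animal left out, calls ran from 2 to 18 for the mitochondrial list, 3 to 10 for translation factors, 3 to 13 for biogenesis and 4 to 6 for mTORC1, which had 6 with the 3 symbols added after seeing the data. Sign changes are listed here only for named genes called in either of the fits compared. With the spike-in block and covariate they were Rpl27a (0.05 and 0.066), Mrpl34 (-0.062 and -0.055), Mrpl38 (-0.054 and -0.034) and Eif6 (-0.00 and -0.019). On single-transcript probe sets it was Eif2ak4 (0.066). Among pairs of a named gene and a setting called in neither fit, 28 of 438 also differed in sign. Members not called changed sign with the block too, such as Rps25 (0.21 to -0.12) and Rps14 (-0.07 to 0.04). The cause was not tested. Same-numbered arrays correlated between -0.02 and 0.12 in their deviations. The arrays numbered 4 and those numbered 5 were each other's best match, and those numbered 1, 2 and 3 were not. A pairing by number was therefore not shown across all arrays. The replicate block left 9 mitochondrial, 5 translation factor, 10 biogenesis and 5 mTORC1 calls. For the 4 genes below the median level of all genes (Rpl14, Rpl39l, Rpl3l and Rps16), a low signal limits what can be said.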
